A study of Mus musculus with 12 samples.

Results

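Double-negative (DN) dendritic cells, which carry neither CD4 nor CD8, were compared with CD4+ dendritic cells, both sorted from mouse spleen as CD11c-high cells and processed directly after isolation. The comparison rests on 4 of the 12 oligonucleotide arrays of the series, 2 fresh DN and 2 fresh CD4+ arrays, chosen by their titles. The other arrays were 2 of fresh CD8+ cells and 2 each of DN, CD4+ and CD8+ cells cultured for 2 h at 37 °C. The labels number the 2 arrays of each group as experiments, and they name no strain, age, treatment or pooling of the mice. Nothing in the labels says that the 2 arrays of a group came from separate mice, so the p-values measure only the spread between arrays, which may be technical, and 2 arrays a group limit the precision of every value.

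Dendritic cells take up antigen and present it to T cells. In the mouse spleen they are classed by surface CD4 and CD8. CD8+ cells, which depend on the transcription factor Irf8, are known for presenting antigen from dead cells on MHC class I, and CD8-negative cells, both CD4+ and DN, for presenting antigen to CD4+ T cells.

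Values are deposited Average Difference intensities, a probe set's perfect-match minus mismatch brightness, so low values can be negative. They were set to a common overall level on every array by the authors (global scaling). An intensity at or below 91.4, the detection floor, was not treated as a measured level. The 4 arrays resembled each other in quality: the Gapdh control probe sets at the 3′ end over those at the 5′ end gave ratios of 0.92 to 1.04. Between replicate arrays, 6.18% of the tested probe sets differed by over 2-fold in DN cells and 4.37% in CD4+ cells, against 2.45% between the group means. The 2 fresh CD8+ arrays, given below as levels, were less alike, with 22.85% over 2-fold apart. Their Gapdh ratios were 2.55 and 0.89, and the same ratios for actin were 0.91 and 0.94.

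The sort labels were checked first. The Cd4 probe set read 82.7 and 77.6 in DN cells, at or below the floor, against 617 and 613 in CD4+ cells. Cd8a was at or below the floor on all 4 arrays (36.1 and 7.7 in DN cells, 19.7 and 11.2 in CD4+ cells), while fresh CD8+ cells read 1210 and 1675. The description of the first fresh CD8+ array names CD4-positive cells, against its title, and this array read 92.0 for Cd4. Itgax, which encodes CD11c, read 2236 and 2770 in DN cells and 3210 and 2687 in CD4+ cells, and the groups overlapped (log2 difference -0.24, 95% interval -0.74 to 0.26).

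Of 4902 probe sets tested, 16 (0.326%) were called at an adjusted p below 0.05 by limma with Benjamini-Hochberg adjustment. Of these, 4 were higher in DN cells (0.0816%) and 12 were lower (0.245%). The 4 higher probe sets belong to Ccr2, Irf8, Cd24a and Mpeg1. The lower ones belong to Cd4, the complement genes C1qb and C1qc, H2-M2, Prss30, H2-Eb2, Adgre1, Tnf, Apoe, Slfn2 (2 probe sets) and 1 probe set without a single gene name. Before adjustment, 448 probe sets had a p under 0.05. Over 1 probe set per gene, 125 of 3858 genes were higher and 228 lower in DN cells at an unadjusted limma p under 0.05. The 2 groups did not overlap for 40.2% of the tested probe sets, with DN cells higher for 21.0% and lower for 19.2%, and over 1 probe set per gene these shares were 21.4% and 19.2%. The number of calls depended strongly on which arrays entered the fit. No probe set was called, and all 16 calls were lost, when the same contrast was fitted on all 12 arrays (69 at an unadjusted p under 0.05) or on the 6 fresh arrays (140). The fit on these 4 arrays alone was chosen with their low spread already known. Leaving out 1 array gave 18 calls without CD4+ replicate 1, 4 without CD4+ replicate 2, 223 without DN replicate 1 and 7 without DN replicate 2.

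**Figure D1:**
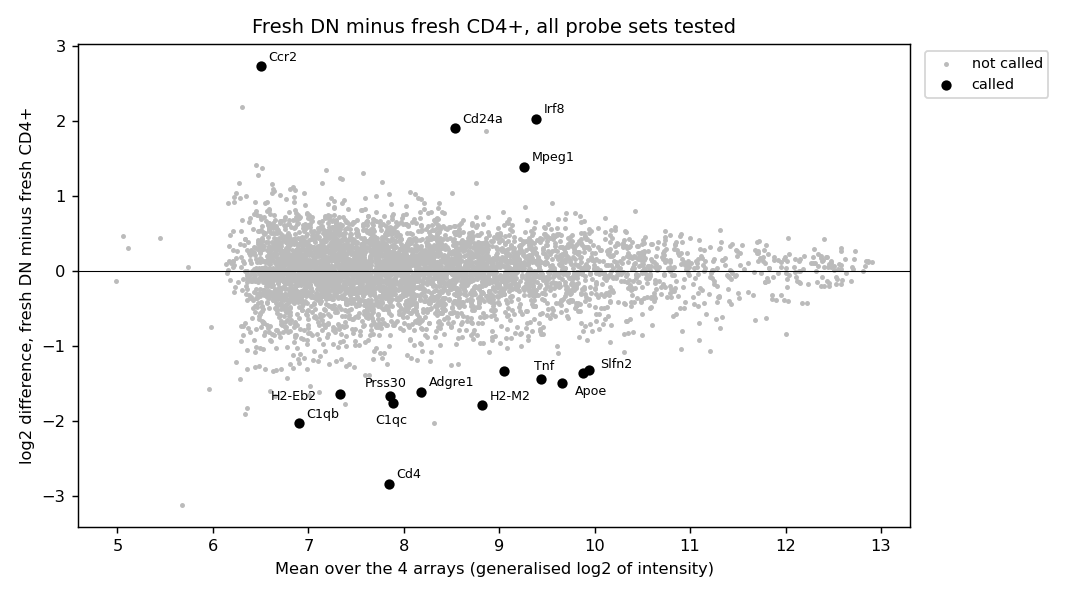
Log2 difference, fresh DN minus fresh CD4+ (vertical), against the mean generalised log2 intensity over the 4 arrays (horizontal) for the 4902 probe sets tested. Black points are the 16 called probe sets. Ccr2 (2.74) and Irf8 (2.03) lie highest and Cd4 (-2.84) lowest among them.

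The transcription factor Irf8 was higher in DN cells. It read 1637 and 1124 in DN cells, against 447.5 and 243 in CD4+ cells, with no overlap, and 8271 and 5017 in fresh CD8+ cells. The log2 difference was 2.03 ± 0.30 (SE), with an adjusted p of 0.0131 by limma. DN cells thus lay above CD4+ cells and below CD8+ cells for this gene. Cd24a encodes the heat-stable antigen CD24, a surface marker of CD8+ dendritic cells and their precursors. It read 712 and 728 in DN cells, against 164 and 219 in CD4+ cells, and 2063 and 2486 in CD8+ cells. Its log2 difference was 1.90 ± 0.26 with an adjusted p of 0.00581 by limma, and its call held without each of the 4 arrays in turn. Mpeg1 encodes perforin-2, a pore-forming protein that kills bacteria inside phagocytes. It read 1114 and 887.5 in DN cells, against 486 and 292 in CD4+ cells, and 7071 and 3369 in CD8+ cells (log2 difference 1.39 ± 0.28, limma adjusted p 0.0458). The same order of the 3 subsets held for Irf8, Cd24a and Mpeg1. In single-array omissions with limma, the adjusted p of Irf8 was 0.0547 without CD4+ replicate 2 and 0.186 without DN replicate 2, and that of Mpeg1 was 0.848 and 0.218.

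**Figure D2:**
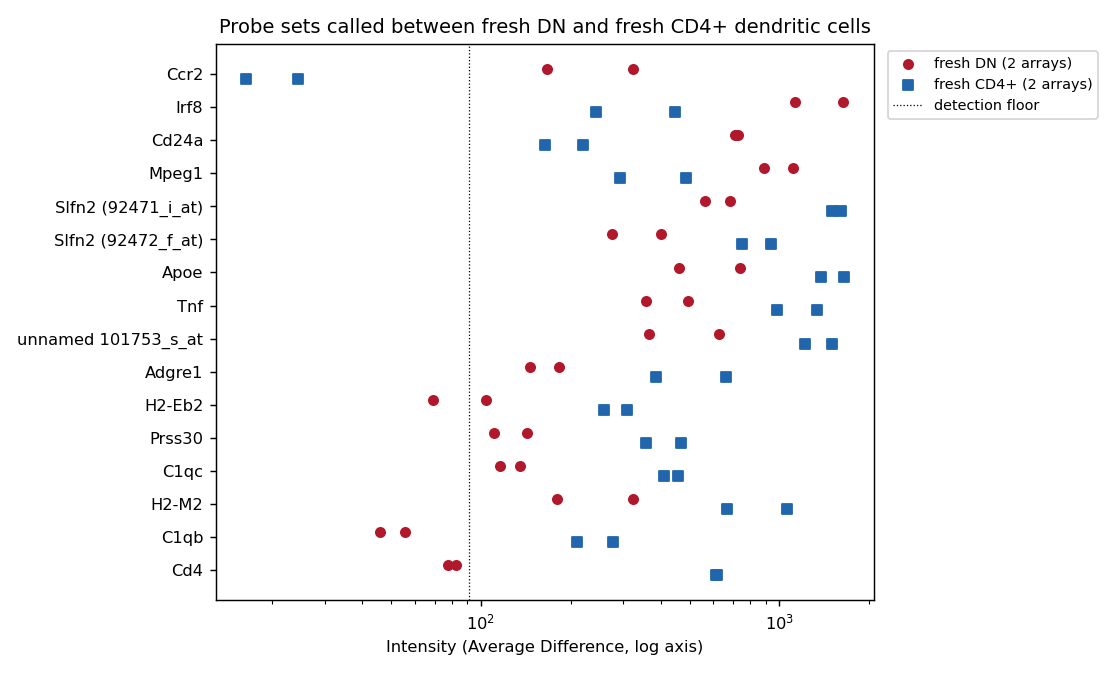
Intensity (horizontal, log axis) of the 16 called probe sets on the 2 fresh DN arrays (circles) and the 2 fresh CD4+ arrays (squares), with the detection floor of 91.4 dotted. The 2 groups do not overlap for any of them, and for Ccr2 both CD4+ arrays, and for Cd4 and C1qb both DN arrays, lie at or below the floor.

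Ccr2 encodes the receptor for the chemokine Ccl2, which draws monocytes and dendritic cell precursors into tissue. It read 322.5 and 166.5 in DN cells and 24.3 and 16.3 in CD4+ cells, where both arrays lay below the floor. The mean level in DN cells was therefore at least 2.42-fold higher than in CD4+ cells (fitted log2 difference 2.74 ± 0.48, limma adjusted p 0.0232). Ccr2 entered the test only through the DN arrays, where it read high, and the p-value rests on CD4+ values that are not measured levels. With values below the floor raised to the floor, the call was lost (limma adjusted p 0.201). It was also lost with no filter (0.165). Fresh CD8+ cells read 365 and 104. Without DN replicate 1 the adjusted p was 0.208 by limma, and without DN replicate 2 it was 0.186.

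Markers of CD8+ dendritic cells were then read as a list. The list named 24 genes, 16 had a probe set with 1 gene name, and 8 were tested. Of these 8, 3 were called higher in DN cells (Irf8, Cd24a and Mpeg1) and none lower. The median log2 difference of the 8 was 0.82, against 0.0136 over the 3858 genes tested, of which 0.363% were called. Cadm1, an adhesion molecule of CD8+ dendritic cells, read 228 and 317 in DN cells and 129 and 139 in CD4+ cells, but it was not called (log2 difference 0.97, limma adjusted p 0.288). It read 3325 and 3296 in CD8+ cells, so DN cells lay far closer to CD4+ than to CD8+ cells. The DN mean lay between the CD4+ and CD8+ means for all 8 tested genes. These genes were listed as markers of CD8+ cells, so a DN mean below the CD8+ mean is largely set by that choice. The list was also chosen with earlier results of these data known. Its calls and its median are therefore no independent support for a higher level in DN than in CD4+ cells. The count includes Batf3, given next, whose groups overlapped. Of the 18 tested markers of CD8-negative cells, 11 had a DN mean between the CD4+ and CD8+ means. The share over all tested genes was not computed. Batf3, a transcription factor required for CD8+ dendritic cells, read 1363 and 1588 in DN cells and 1616 and 1331 in CD4+ cells, and the groups overlapped (log2 difference 0.0046, 95% interval -0.48 to 0.48). Id2, another such factor, read 2320 and 2557 in DN cells and 1936 and 2050 in CD4+ cells, and was not called (log2 difference 0.29, 95% interval -0.18 to 0.76). Some other surface markers of the list, unlike Cd24a and Cadm1, were not measurable in either subset. Xcr1, a chemokine receptor, Itgae, the integrin CD103, Ly75, the uptake receptor CD205, and Cd8a lay at or below the floor on all 4 arrays, while Xcr1 read 373 and 872, Itgae 298 and 345, and Ly75 476 and 474 in CD8+ cells. Bulk arrays cannot tell a few cells of another type from less RNA per cell, here or in any result that follows.

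**Figure D3:**
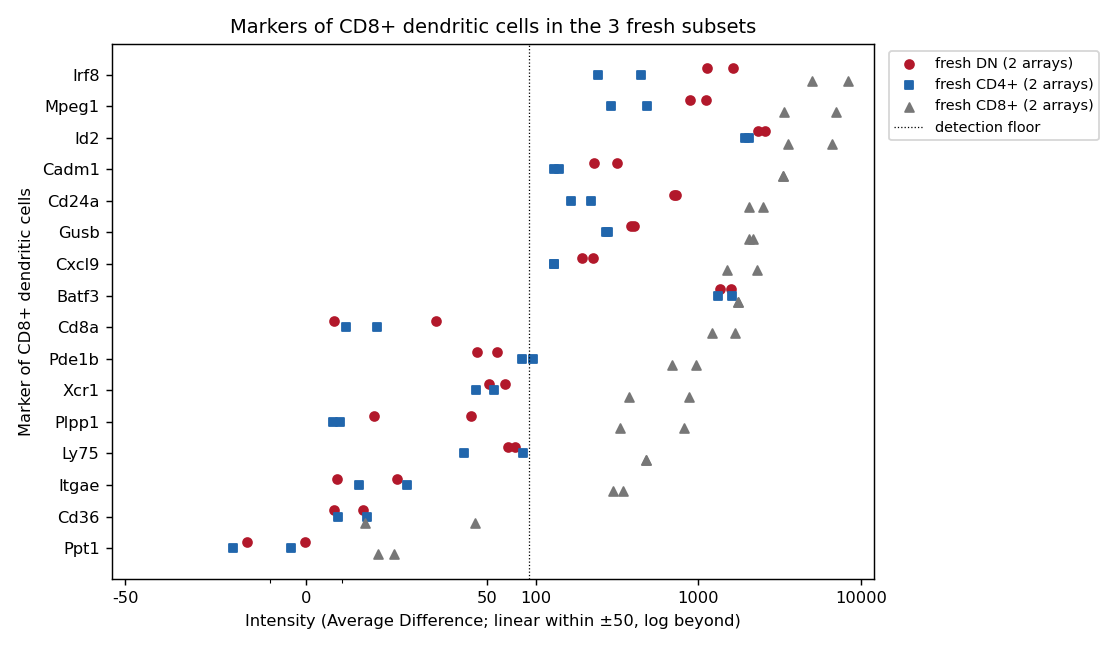
Intensity (horizontal, linear within 50 of 0 and logarithmic beyond) of the 16 measured markers of CD8+ dendritic cells on the fresh DN (circles), CD4+ (squares) and CD8+ (triangles) arrays. For Irf8, Mpeg1 and Cd24a the DN arrays lie between the other groups, and for Cd8a, Xcr1, Ly75 and Itgae both the DN and CD4+ arrays lie at or below the floor.

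Markers of CD8-negative dendritic cells included 18 tested genes, of which 2 were called lower in DN cells (Cd4 and Adgre1) and none higher. Over all tested genes 0.363% were called, and the difference in Cd4 was set by the sort gate. The median log2 difference of the 18 was -0.11. Some genes that CD8+ cells had at lower intensity were close in DN and CD4+ cells. Dtx1, a regulator of Notch signalling, read 2014 and 2278 in DN cells and 2267 and 2131 in CD4+ cells (log2 difference -0.04, 95% interval -0.51 to 0.44), against 108 and 90.0 in CD8+ cells. Ltb, a lymphotoxin subunit, read 4177 and 5275 in DN cells and 5186 and 4049 in CD4+ cells (log2 difference 0.03, 95% interval -0.49 to 0.56), against 866 and 804 in CD8+ cells. For neither gene did the interval reach a 2-fold difference. Sirpa, an inhibitory receptor of CD8-negative dendritic cells, read 1111 and 944 in DN cells and 1721 and 1523 in CD4+ cells. The Sirpa groups did not overlap, but it was not called (log2 difference -0.66, limma adjusted p 0.328). Klf4 of the same list went the other way, at 1262 and 1589 in DN cells and 815 and 911 in CD4+ cells. It was not called either (log2 difference 0.72, limma adjusted p 0.29). Of the 18, 4 did not overlap with DN cells higher and 4 with DN cells lower. Over all tested genes these shares were 21.4% and 19.2%.

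Cd4 had the largest called decrease. Its mean in CD4+ cells was at least 6.37-fold higher than in DN cells, where both arrays lay below the floor (fitted log2 difference -2.84 ± 0.27, limma adjusted p 0.000115). This difference is the gate of the sort, and the call held without each of the 4 arrays in turn. T cells also express Cd4, and 11 of the 13 measured T cell markers lay at or below the floor on all 4 arrays. On each of these arrays only 36.42% to 38.75% of all non-control probe sets lay above the floor. The summed intensity of the 13 was 609 and 435 in DN cells and 477 and 396 in CD4+ cells.

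Complement component C1q is the recognition part of the classical pathway, and macrophages and dendritic cells make it from the chains C1qa, C1qb and C1qc. C1qc and 1 of the 2 tested C1qb probe sets were called lower in DN cells. C1qb read 55.5 and 45.8 in DN cells, at or below the floor, against 276 and 209 in CD4+ cells. The mean of CD4+ cells was therefore at least 2.51-fold higher (fitted log2 difference -2.03 ± 0.36, limma adjusted p 0.0232). This probe set entered the test only through the CD4+ arrays, where it read high. With values below the floor raised to the floor, its call was lost (limma adjusted p 0.161). A second C1qb probe set was not called and read 135 and 71.5 in DN cells and 118 and 52.2 in CD4+ cells (log2 difference 0.28, 95% interval -0.76 to 1.32), so the 2 probe sets disagreed. C1qc read 116 and 135 in DN cells and 459 and 412 in CD4+ cells, with a log2 difference of -1.75 ± 0.27 (limma adjusted p 0.0131). C1qa read 111 and 108 in DN cells and 302 and 252 in CD4+ cells, and missed the threshold (log2 difference -1.28 ± 0.30, limma adjusted p 0.133). C1qa, C1qc and the called C1qb probe set thus read lower on both DN arrays than on both CD4+ arrays, as did 19.2% of all tested probe sets, and the second C1qb probe set overlapped. In single-array omissions with limma, the adjusted p of C1qb was 0.605 without CD4+ replicate 1, 0.195 without CD4+ replicate 2 and 0.0789 without DN replicate 2, and that of C1qc was 0.0988 without CD4+ replicate 1 and 0.117 without CD4+ replicate 2.

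The 3 C1q genes are neighbours on mouse chromosome 4 in RefSeq's gene order. The promoters of the 2 with a called probe set are shown, although the 2 C1qb probe sets disagreed. Each is the 250 bases before the start of the gene in the direction of transcription, from RefSeq on build GRCm38.p6, with capitals marking matches to GAGGAA, a core letter string of sites bound by the myeloid factor PU.1, on either strand. C1qb lies on the minus strand at chr4:136886201-136886450 and C1qc on the minus strand at chr4:136892915-136893164.
C1qb: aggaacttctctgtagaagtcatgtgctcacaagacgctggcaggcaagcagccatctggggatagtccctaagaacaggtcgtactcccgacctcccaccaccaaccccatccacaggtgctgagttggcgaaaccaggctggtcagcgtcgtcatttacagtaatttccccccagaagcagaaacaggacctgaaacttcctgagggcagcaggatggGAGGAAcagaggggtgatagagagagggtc
C1qc: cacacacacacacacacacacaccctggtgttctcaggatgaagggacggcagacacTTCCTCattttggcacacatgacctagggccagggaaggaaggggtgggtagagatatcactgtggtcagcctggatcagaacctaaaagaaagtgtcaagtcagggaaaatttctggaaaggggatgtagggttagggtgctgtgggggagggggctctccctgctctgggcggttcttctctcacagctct
The match lies at bases -30 to -25 in C1qb, on the gene's own strand, and at -193 to -188 in C1qc, on the other strand. GAGGAA occurred in 23.3% of the 32851 promoter windows of the same length, so a match is common. Also searched on both strands, overlaps allowed, were the composite of GGAA and GAAA with 2 or 3 bases between them, which PU.1 and Irf8 can bind together, and GAAA repeated with 2 bases between, a core of interferon-response sites. The composites occurred in 2.3% of windows with 2 bases between and 2.33% with 3, and the repeat in 2.98%. Neither C1q promoter held any of these 3. Cd4, Cd24a, Adgre1 and C1qa were not searched. Among the promoters searched, only that of Slfn2 held one of them, with GGAA and GAAA 2 bases apart on the other strand at bases -59 to -50. GAGGAA was not particular to the C1q genes, as it also occurred in the H2-M2 and Tnf windows and in some windows of Apoe. The Ccr2, Irf8 and Mpeg1 windows held none of the 4 strings, and neither did those of Prss30 and H2-Eb2.

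Adgre1 and Apoe, other genes of phagocytes, were also lower in DN cells. Adgre1 encodes F4/80, an adhesion receptor used to mark macrophages. It read 146 and 183 in DN cells, against 386 and 664 in CD4+ cells (log2 difference -1.61 ± 0.30, limma adjusted p 0.0307). Apoe, a lipid carrier that macrophages secrete, read 461 and 740.3 in DN cells, against 1645 and 1374 in CD4+ cells (log2 difference -1.36 ± 0.26, limma adjusted p 0.0313). Both genes were lower on both DN arrays. Without CD4+ replicate 2 the limma adjusted p was 0.751 for Adgre1 and 0.123 for Apoe, without DN replicate 2 it was 0.186 for Adgre1, and without CD4+ replicate 1 it was 0.228 for Apoe. Over the list of monocyte and macrophage markers, 19 of 27 genes were measured and 13 tested, with 1 called higher in DN cells (Ccr2) and 3 lower (Adgre1, C1qb and C1qc). The median log2 difference of the 13 was -0.84. At an unadjusted limma p under 0.05, 8 of the 13 were lower and 1 higher in DN cells. Over all 3858 tested genes, 228 were lower and 125 higher at such a p. Over all tested genes 0.363% were called, and Ccr2 and C1qb entered the test only through the group in which they read high. Lyz2, the lysozyme of myeloid cells, read 572 and 467 in DN cells and 955 and 901.5 in CD4+ cells, and Cd68, a lysosomal protein of phagocytes, read 1318 and 679.5 in DN cells and 1782 and 1604 in CD4+ cells. Neither was called (limma adjusted p 0.209 and 0.342). Of the 19 measured genes, only 6 lay at or below the floor on all 4 arrays. Marco, Mertk, Spic and Vcam1, which mark macrophages of the spleen, were among these 6. The intensity of the 19 genes, summed with negative values at 0, was 7878 and 6487 in DN cells and 9839 and 8535 in CD4+ cells. Whether macrophages in the sorted cells had a part in the differences was not tested.

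Tnf, which encodes the inflammatory cytokine tumour necrosis factor, read 358 and 493 in DN cells, against 982 and 1337 in CD4+ cells (log2 difference -1.44 ± 0.26, limma adjusted p 0.0257). Without CD4+ replicate 2 the limma adjusted p was 0.53. Tnf was the only called gene among 19 tested genes of the NF-kB pathway and its targets, whose median log2 difference was -0.13. The share called over all tested genes was 0.363%. Ccl3, a chemokine of the same list, read 841 and 957 in DN cells and 1316 and 1653 in CD4+ cells, and was not called (limma adjusted p 0.29).

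Both a class I-like and a class II-like gene of the major histocompatibility complex were lower in DN cells. H2-M2, a non-classical class I gene, read 323.5 and 179 in DN cells and 668 and 1057 in CD4+ cells (log2 difference -1.79 ± 0.32, limma adjusted p 0.0266). H2-Eb2, a class II beta-chain gene, read 104 and 69.3 in DN cells and 258 and 309 in CD4+ cells (fitted log2 difference -1.64 ± 0.33, limma adjusted p 0.0458). The second DN array lay below the floor, so the size of this difference is uncertain. Neither is among the main presenting molecules. Those were not called, with H2-Ab1 at 6328 and 6186 in DN cells and 6773 and 5077 in CD4+ cells (log2 difference 0.09, 95% interval -0.43 to 0.62). None of the 16 tested genes of the class II presentation list, which does not hold H2-Eb2, was called in limma, and 6 had an unadjusted p under 0.05, each lower in DN cells. Among them, H2-Ob, a chain of the inhibitor of peptide loading, read 634 and 777 in DN cells and 1124 and 1575.5 in CD4+ cells (limma adjusted p 0.175). At an unadjusted limma p under 0.05, 125 of all 3858 tested genes were higher and 228 lower in DN cells. In single-array omissions with limma, the call of H2-M2 was lost without CD4+ replicate 2 (adjusted p 0.229) and without DN replicate 2 (0.234), and that of H2-Eb2 was lost without CD4+ replicate 1 (0.128), CD4+ replicate 2 (0.575) and DN replicate 2 (0.186).

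Slfn2, a Schlafen family gene that keeps T cells and monocytes quiescent, was called on 2 probe sets. One read 685 and 565 in DN cells and 1497 and 1612 in CD4+ cells, and the other 401 and 274 in DN cells and 751 and 934 in CD4+ cells. The log2 differences were -1.32 ± 0.23 and -1.33 ± 0.27 (limma adjusted p 0.0232 and 0.0472). Both probe sets are of kinds that can detect related family members, so signal from other Schlafen genes cannot be told apart. Prss30, a serine protease, read 110.3 and 143 in DN cells and 358 and 469 in CD4+ cells (log2 difference -1.66 ± 0.29, limma adjusted p 0.0232). The called probe set without a single gene name read 627.5 and 366 in DN cells and 1222 and 1503 in CD4+ cells (log2 difference -1.50 ± 0.27, limma adjusted p 0.0266). Without CD4+ replicate 2 the limma adjusted p was 0.51 for Prss30, 0.32 for the unnamed probe set, and 0.38 and 0.634 for the brighter and the dimmer Slfn2 probe set. The Slfn2 calls were also lost without CD4+ replicate 1 (0.0988 and 0.092) and DN replicate 2 (0.0789 and 0.218), and that of the unnamed probe set without DN replicate 2 (0.148).

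Of 19 tested interferon-induced genes, none was called in limma. Their log2 differences were below 0 for 15 and above 0 for 4, with a median of -0.53 against 0.0136 over all tested genes. Of these genes, 6 had an unadjusted p under 0.05, each lower in DN cells. Over all 3858 tested genes, 125 were higher and 228 lower at an unadjusted limma p under 0.05. Log2 differences over all tested genes were above 0 for 1984 and below 0 for 1874. Ifi27, an interferon-induced membrane protein, read 681 and 423 in DN cells and 1116 and 1183 in CD4+ cells (log2 difference -1.10 ± 0.26, limma adjusted p 0.133). Ifitm3, an antiviral membrane protein, read 1734.5 and 1026 in DN cells and 2803 and 2695 in CD4+ cells (log2 difference -1.04 ± 0.26, limma adjusted p 0.169). Usp18, which removes the ubiquitin-like protein Isg15 from its targets, read 229 and 173 in DN cells and 451 and 391 in CD4+ cells (limma adjusted p 0.174).

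**Figure D4:**
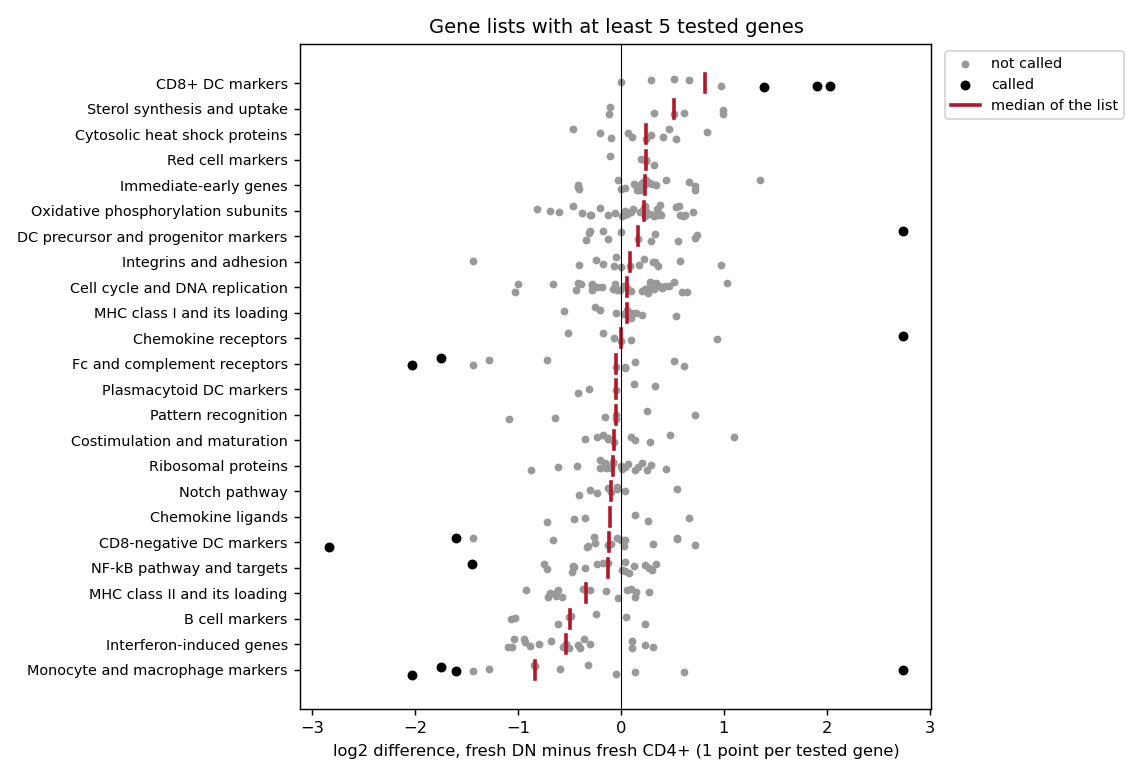
Log2 difference, fresh DN minus fresh CD4+ (horizontal), of each tested gene in the lists with at least 5 tested genes, with the list's median as a red bar and called genes in black. The markers of CD8+ dendritic cells have the highest median (0.82) and the markers of monocytes and macrophages the lowest (-0.84). The lists were chosen with earlier results of these data known.

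Of the 31 lists read, 24 had no called gene. Ccr2 was the called gene of 2 further lists, the dendritic cell precursor markers (13 tested, median log2 difference 0.17) and the chemokine receptors (7 tested, median 0.0041), and C1qb and C1qc were those of the Fc and complement receptors (11 tested, median -0.05). The share called over all tested genes was 0.363%. These are calls already given above, counted again, and Ccr2 and C1qb entered the test only through the group in which they read high. Markers of other cells lay mostly at or below the floor on all 4 arrays: 10 of 13 for neutrophils, 9 of 12 for NK cells, 12 of 15 for stromal and endothelial cells, 8 of 10 for basophils and mast cells and 6 of 11 for red cells. For plasmacytoid dendritic cells it was 5 of 10. Low readings were common, as only 36.42% to 38.75% of all non-control probe sets lay above the floor on each array. Some members were bright. Ccl5 of the NK cell list read 2759 and 1785 in DN cells and 3435 and 2319 in CD4+ cells. Hba-a1 of the red cell list read 814 and 199 in DN cells and 697 and 164 in CD4+ cells. Whether such cells were present was not tested.

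Of 8 tested B cell markers none was called in limma, 6 had a log2 difference below 0 and 2 above 0 (median -0.49), and 3 had an unadjusted p under 0.05, each lower in DN cells. None of 3 tested plasma cell markers was called, with 1 at an unadjusted p under 0.05 (median -0.26). Over all 3858 tested genes, 125 were higher and 228 lower at an unadjusted limma p under 0.05. Ighm, the immunoglobulin mu chain, read 2118 and 1264.5 in DN cells and 3054.5 and 3840.3 in CD4+ cells (log2 difference -1.07 ± 0.27, limma adjusted p 0.169). Igha, the alpha chain, read 260.5 and 98.6 in DN cells and 419 and 633 in CD4+ cells (log2 difference -1.65 ± 0.41, limma adjusted p 0.207). The summed intensity of all 61 immunoglobulin probe sets, a set chosen after these values were seen, was 6572 and 3310.5 in DN cells and 8417 and 11948 in CD4+ cells. That of the 16 B cell markers was 4533 and 3351 in DN cells and 6020 and 6566 in CD4+ cells. Of these 16, 6 lay at or below the floor on all 4 arrays, among them Ebf1 and Cd79a. Cd22, a B cell receptor of sialic acid, read 466 and 863 in DN cells and 512 and 564 in CD4+ cells, and the groups overlapped. Cd72, an inhibitory receptor of B cells, read 446 and 319 in DN cells and 742 and 799.5 in CD4+ cells (limma adjusted p 0.169). The part of B cells or of immunoglobulin RNA in the called differences was not tested.

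Among genes that were not called, the 8 of lowest p on each side were also read, from probe sets above the floor on all 4 arrays. On the higher side they were Sema4a, Ybx3, Tubb2a, Anxa1 (2 probe sets), Ifrd1, Psmb7 and Klrd1. Sema4a, a semaphorin that costimulates T cells, read 315 and 281 in DN cells and 130.1 and 104 in CD4+ cells (log2 difference 1.31 ± 0.30, limma adjusted p 0.117). Klrd1, which encodes the receptor subunit CD94, read 947 and 1109 in DN cells and 609 and 489.9 in CD4+ cells (log2 difference 0.91 ± 0.24, limma adjusted p 0.175). On the lower side they were Txnip, Copz1, 2210010C04Rik, Ifi27, C1qa, Rtcb, Vamp8 and Ifitm3. Txnip, an inhibitor of thioredoxin, read 999 and 761 in DN cells and 1808 and 1894 in CD4+ cells, closest to the threshold of the 16 (log2 difference -1.08 ± 0.23, limma adjusted p 0.0691).

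The same contrast was read on the 4 cultured arrays, which the fresh fit did not use. None of the 4902 probe sets was called in limma (0.0%), and 52 had an unadjusted p under 0.05. Replicate arrays of cultured CD4+ cells differed by over 2-fold in 31.8% of probe sets, so the cultured fit was the less precise. Of the 16 probe sets called in fresh cells, 4 lay at or below the floor on all 4 cultured arrays (Ccr2, C1qb, C1qc and Prss30), so their sign there carries no information. Of the 12 with a measured level on at least 1 cultured array, 9 had the same sign in cultured cells. They were 3 of 3 among those higher in DN cells and 6 of 9 among those lower. The share was 45.3% over the 4470 tested probe sets with such a level. The 9 include Cd4, whose sign is set by the sort gate. They also include Mpeg1 (cultured log2 difference 0.10 ± 0.39) and Adgre1 (-0.16 ± 0.94), whose signs are uncertain. Both Slfn2 probe sets count among those of opposite sign. So few signs do not establish a repeat. Irf8 read 1048.5 and 394 in cultured DN cells and 736 and 171 in cultured CD4+ cells, and the groups overlapped (log2 difference 0.85). Cd24a read 560 and 743 in cultured DN cells and 529 and 379 in cultured CD4+ cells (log2 difference 0.52). The brighter Slfn2 probe set had the opposite sign, at 4676 and 1852 in cultured DN cells and 1041 and 3680 in cultured CD4+ cells (log2 difference 0.59). The difference between the fresh and the cultured contrast was itself tested, and no probe set was called in limma (0.0%), with 126 at an unadjusted p under 0.05.

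**Figure D5:**
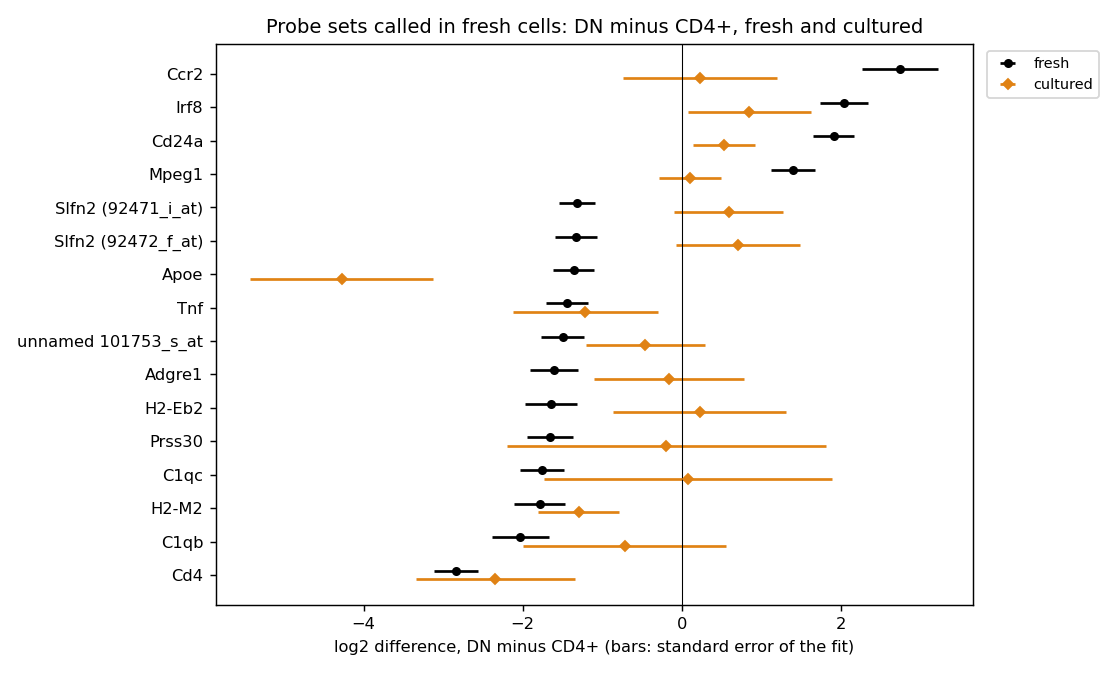
Log2 difference, DN minus CD4+ (horizontal, with the standard error of the fit), of the 16 probe sets called in fresh cells, in fresh cells (black circles) and cultured cells (orange diamonds). In cultured cells both Slfn2 probe sets, H2-Eb2 and C1qc lie on the other side of 0, and Ccr2, C1qb, C1qc and Prss30 lay at or below the floor on all 4 cultured arrays, so their cultured values are not measured levels.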

How the data were processed

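The deposited table holds 12488 probe sets on 12 arrays. Per the labels, its values are linear intensities (Average Difference) that the authors had globally scaled; software and scaling target: not given in the sources used here. Of the probe sets, 66 are controls, 10833 carry 1 gene symbol, 396 several and 1193 none. Each intensity x was turned into a generalised log2 value, the log2 of the mean of x and sqrt(x² + c²). The offset c, 45.7, is the size of negative values (root mean square per array, then the median array). The detection floor is 2 times c. Testing was limited to non-control probe sets that passed it on 2 or more of the 4 arrays, with limma 3.58.1 in R 4.3.3 (trend and robust eBayes, Benjamini-Hochberg, adjusted p below 0.05). A fold change of a low gene is understated on this scale. Where both arrays of 1 group lay at or below the floor, "at least" is the other group's mean over the floor. The fit was tested on simulated data. Gene lists take the brightest tested probe set of a gene, by symbol. Genes eligible to be named with values were Cd4, Cd8a and Itgax, all called ones, the 8 of lowest p each way among the uncalled, and up to 3 of each of 31 lists, with up to 2 of the brightest for cell types. Others are named from the lists as examples, chosen after their values were seen. The comparison, the 4-array fit and the lists were chosen with earlier results of these data known. Promoters are from RefSeq (GRCm38.p6). No protein sequences were used here.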

Additional observations from a re-analysis of the deposited data

How the results depend on the processing

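The count of 16 probe sets called in fresh cells was tried under 15 alternatives and ranged between 0 and 262, so it depends on the setting. It was 0 with all 12 arrays and 0 with the 6 fresh arrays, 25 with probe sets above the floor on all 4 arrays (12 shared with the 16), 1 with no filter, 9 with quantile normalization (9 shared), 1 without trend or robust estimation, and between 4 and 223 when 1 array was left out. The other settings (a filter over 12 arrays, 0.5 and 2 times the offset, a hard floor) gave 11 to 16 calls. With the experiment number as a replicate block, 262 were called (77 higher and 185 lower in DN cells, 16 shared), in a fit with 1 residual degree of freedom. The numbers were treated as shared numbers, not as pairs. The deviations of same-numbered arrays correlated at 0.424 in fresh and 0.322 in cultured cells. The Spearman correlation of fresh DN with fresh CD4+ arrays was 0.9405 for those numbered 1 and 0.8887 for those numbered 2. Between replicates it was 0.8941 in DN and 0.9252 in CD4+ cells. Only the arrays numbered 1 thus resembled each other more than their own replicates, and 2 numbers cannot settle a pairing. For the cultured contrast, which had 0 calls, the replicate block gave 1 and leaving out 1 array gave 0 to 66, with 66 without CD4+ replicate 2. The difference between fresh and cultured contrasts had 0 calls in every setting tried (limma, 101 to 186 at an unadjusted p under 0.05).

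Over the named genes, 1426 values kept their direction and their side of the threshold, 107 lost and 71 gained a call, and 28 changed sign. Every change of sign came from leaving out 1 array, in genes that were not called. The log2 differences ranged from -0.23 to 0.78 for the second C1qb probe set, -0.14 to 0.14 for Batf3, -0.14 to 0.21 for Ltb, -0.74 to 0.0801 for Cd7, -0.46 to 0.11 for Flt3, -0.0213 to 0.30 for Plac8, -0.043 to 0.29 for Spib, -0.58 to 0.24 for Cd5, -0.18 to 0.45 for Lat, -0.21 to 0.68 for Cd22, -0.21 to 0.25 for Xbp1, -0.76 to 0.21 for Csf3r, -0.69 to 0.79 for Camp, -0.0907 to 0.48 for Klf1, -0.79 to 1.28 for Hba-a1, -0.20 to 1.66 for Gp9, -0.72 to 0.57 for Pecam1 and -0.26 to 0.37 for Col1a2. The causes were not tested. With 1 array left in a group, it is assumed to vary like the other group.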

Other observations

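Several other lists were read without a call in limma. Over all 3858 tested genes, log2 differences were above 0 for 1984 and below 0 for 1874. At an unadjusted limma p under 0.05, 125 of these genes were higher and 228 lower in DN cells. Of 25 tested immediate-early genes, 20 had a log2 difference above 0 and 5 below 0 (median 0.23), and 2 had an unadjusted p under 0.05. Nr4a2, an orphan nuclear receptor, read 269 and 196 in DN cells and 85.4 and 85.3 in CD4+ cells, where both lay below the floor (limma adjusted p 0.163). Among 35 tested genes of the cell cycle and DNA replication, the median was 0.06, with 1 gene higher and 3 lower at an unadjusted p under 0.05. Mki67, which encodes the proliferation marker Ki-67, read 275 and 388 in DN cells and 144 and 173 in CD4+ cells (log2 difference 1.03, limma adjusted p 0.21). Of 36 tested subunits of oxidative phosphorylation, 26 had a log2 difference above 0 and 10 below 0 (median 0.23).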
